A study of Homo sapiens with 4 samples.

Results

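The 35 genes described here act in mitosis: they drive entry into division, build the spindle, hold the spindle checkpoint, separate the chromosomes and divide the cell. They were taken as a list of gene symbols and matched by the gene name in the deposited table, which placed 35 of 35 among its 47251 genes. RNA was sequenced from AGS, an established epithelial line from a human gastric cancer, in 4 libraries. In 2 libraries (sh-MFAP2 replicates 1 and 2) the cells carried an shRNA against MFAP2, a protein of the microfibrils of the extracellular matrix, and in the other 2 (control replicates 1 and 2) a control shRNA. Both kinds of cells were grown in DMEM with 10% FBS, and per the study's methods the hairpins came from lentivirus and infected cells were selected with puromycin, so both groups share infection and selection, and whether the cells were 1 clone or a pool is not given. The titles name the same hairpin for both sh-MFAP2 libraries, whereas another label numbers them apart, and nothing says that the 2 libraries of a group came from separate cultures. The p-values below therefore measure only the spread between these libraries, which may be technical.

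Mitosis begins when CDK1, bound to a B-type cyclin, is switched on by CDC25 phosphatases. The spindle then attaches to the chromosomes at kinetochores, and while any kinetochore is unattached the checkpoint proteins keep CDC20 from activating the anaphase-promoting complex. Once all are attached, securin and the cyclins are destroyed, separase cuts cohesin and the cell divides at the central spindle. Most of these genes are transcribed in late S, G2 and M phase, which makes their RNA a common reading of how many cells in a culture are dividing. In RNA from a whole culture, fewer dividing cells and less of the RNA in each cell cannot be told apart.

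The gene values were FPKM, fragments scaled by 1 length for each gene and by library size. Depth was inferred from the step between low values as 54900000 to 75100000 reads per library. MFAP2 itself (chromosome 1, 16974502 to 16980835) had the value 0 in each sh-MFAP2 library and 0.0116 and 0.0138 FPKM in the controls, where it rested on about 2 and 3 reads, so it could not check the labels. All 35 mitosis genes passed the filter of a mean of at least 1 FPKM, as did 9873 genes of the table. Each value of a mitosis gene rested on 854 to 49384 inferred reads, so the number of libraries and not the depth limits the precision here.

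None of the 35 genes differed between sh-MFAP2 and control cells by the test. DEGs were called by limma at p under 0.01 and adjusted p under 0.05, which took 27 genes, 0.273% of the 9873 tested, and none of the 35. The smallest adjusted p among the mitosis genes was 0.346 (ECT2) and the largest 0.982 (AURKA). At an unadjusted p under 0.05, 3 of the 35 were lower in sh-MFAP2 cells (ECT2, TOP2A and CENPF) and 0 were higher, where 8.41% of all genes tested were lower and 3.89% higher at that level. With median-of-ratios scaling, 1 of the 35 passed that level in either direction, where 1118 of the 9873 genes tested did. The differences were small: the ratio of the group means lay within 1.5-fold for 35 of 35 genes, and the log2 fold change, sh-MFAP2 minus control on log2(FPKM + 1), ran from -0.55 (CDCA8) to 0.23 (CDC25B). The 95% intervals left out a log2 fold change of -1 for 31 of the 35 and of 1 for 35 of the 35, so a doubling was outside every interval, and reached 0.284 to 1.18 log2 to either side of the value.

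Most of the 35 lay on the lower side in sh-MFAP2 cells. The log2 fold change was below 0 for 29 of them (82.9%) against 58% of all genes tested, and its median was -0.19 against -0.05. Both sh-MFAP2 values lay below both controls for 16 genes (45.7%), where 31.4% of all genes tested did so, and above both controls for 1 gene, NDC80, where 17.5% did so. Scaling the libraries by median of ratios brought the median of all genes to 0.01 and that of the 35 to -0.12, with 13 genes then lower and 4 higher without overlap, beside 24.8% and 24.1% of all genes. Without sh-MFAP2 replicate 1 the median of the 35 was -0.07, beside -0.03 for all genes. Without sh-MFAP2 replicate 2 the number lower without overlap was 30, beside 49.5% of all genes.

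**Figure D1:**
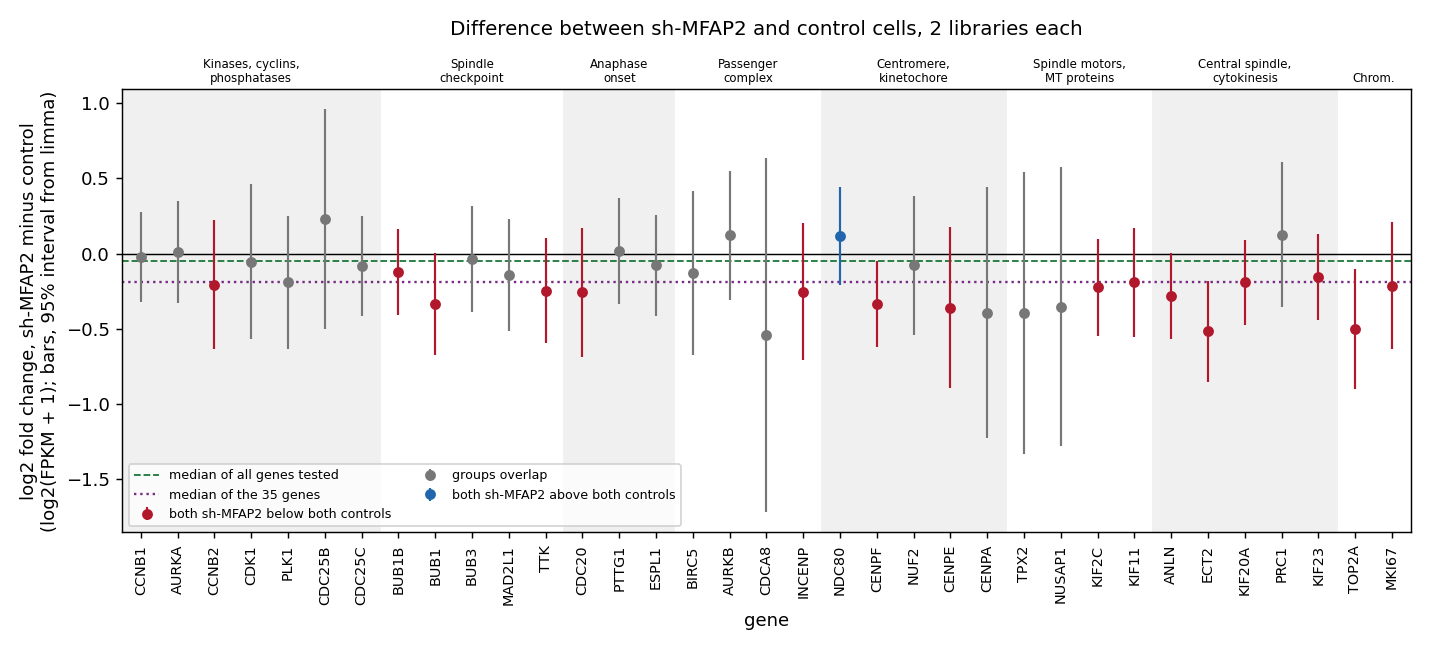
Log2 fold change of each mitosis gene, sh-MFAP2 minus control on log2(FPKM + 1), with the 95% interval from limma (n = 2 libraries a group), ordered by role and within a role by level ("Chrom." holds TOP2A and MKI67). Most points lie below 0, and only the intervals of CENPF, ECT2 and TOP2A leave out 0. The dashed line is the median of all genes tested (-0.05) and the dotted line that of the 35 genes (-0.19).

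The 3 genes with an unadjusted p under 0.05 stand first, by that p alone. Of all genes tested, 8.41% were lower at that p, which is close to the share of the mitosis genes. The count of 3 therefore does not set the mitosis genes apart from the other genes, and none of the 3 was called. ECT2 (chromosome 3, 172750682 to 172821474, plus strand), the exchange factor that switches on RhoA at the cell equator, was at 31.9 FPKM in sh-MFAP2 replicate 1, 36.3 FPKM in sh-MFAP2 replicate 2, 48.8 FPKM in control replicate 1 and 49.6 FPKM in control replicate 2. Below, values come in this order of libraries. Both sh-MFAP2 values lay below both controls, with means of 34.1 ± 3.09 and 49.2 ± 0.56 FPKM (SD, n = 2). The log2 fold change was -0.52 (SE 0.119, adjusted p = 0.346 from limma).

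TOP2A (chromosome 17, 40388516 to 40417950, minus strand), the topoisomerase that untangles sister DNA, was at 78.4 and 64.9 FPKM in sh-MFAP2 cells and at 101 and 102 FPKM in controls. The controls were close to each other and both above the sh-MFAP2 libraries, with a log2 fold change of -0.50 (SE 0.141, adjusted p = 0.382 from limma). CENPF (chromosome 1, 214603195 to 214664588, plus strand), a large protein of the outer kinetochore, was at 22.2 and 23.1 FPKM in sh-MFAP2 cells and at 28.7 and 29.03 FPKM in controls. Its replicates differed least of the 3, and the groups did not overlap, with a log2 fold change of -0.34 (SE 0.101, adjusted p = 0.394 from limma).

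Promoters of mitotic genes often hold a CHR element, the letters TTTGAA, near the start of transcription and CCAAT boxes upstream of it. The CHR is bound by MuvB complexes, which repress these genes in resting cells and, with B-MYB and FOXM1, activate them in G2, and the CCAAT box is bound by NF-Y. The 250 bases before the start are shown for the same 3 genes, as the promoters of the genes with the smallest p, from RefSeq on GRCh38.p14, read 5′ to 3′ on the strand of the gene. Capitals mark TTTGAA and CCAAT or, on the other strand, TTCAAA and ATTGG.
ECT2, chr3:172750476-172750725, plus strand: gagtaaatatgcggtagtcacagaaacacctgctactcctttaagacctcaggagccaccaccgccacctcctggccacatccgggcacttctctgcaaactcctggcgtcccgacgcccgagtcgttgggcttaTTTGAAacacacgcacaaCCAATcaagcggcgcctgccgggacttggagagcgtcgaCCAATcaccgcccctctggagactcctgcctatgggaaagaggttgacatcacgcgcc
TOP2A, chr17:40417897-40418146, minus strand: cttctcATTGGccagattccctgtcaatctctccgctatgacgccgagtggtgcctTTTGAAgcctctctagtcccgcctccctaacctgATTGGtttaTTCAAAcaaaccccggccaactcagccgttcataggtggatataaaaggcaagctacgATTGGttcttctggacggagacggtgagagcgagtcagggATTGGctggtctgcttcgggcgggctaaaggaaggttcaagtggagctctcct
CENPF, chr1:214602945-214603194, plus strand: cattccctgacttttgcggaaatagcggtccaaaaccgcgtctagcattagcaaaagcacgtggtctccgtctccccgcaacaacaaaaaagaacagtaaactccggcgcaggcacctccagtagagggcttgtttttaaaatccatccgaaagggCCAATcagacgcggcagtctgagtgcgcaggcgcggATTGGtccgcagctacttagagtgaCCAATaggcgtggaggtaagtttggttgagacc
CCAAT on either strand stands in all 3 stretches, and TTTGAA in those of ECT2 and TOP2A. In CENPF the only TTTGAA of the 300-base window lies after the start.

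Windows of 300 bases (250 before and 50 after the start) were found for 30 of the 35 genes, with 40 windows in all, since some genes have several starts. TTTGAA stood on either strand in 25 of the 40 windows (62.5%), against 15.2% of the 35116 windows of all genes, and CCAAT in 72.5% against 34.6%. Both motifs together stood in 20 windows (50%), belonging to 18 genes, against 5.9% of all windows. TTTGAA on the strand of the gene within the 60 bases before the start was found for 13 genes (32.5% of windows) against 1.53% of all windows. The GC box GGGCGG, common in many promoters, stood in 75% against 45%, and the palindromic variant TTCGAA in 7.5% against 1.45%. No searched motif contains another.

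Genes with and without the motif are set side by side here with no test. The 22 genes with TTTGAA had a median log2 fold change of -0.20 and the 8 without it -0.11. Both sh-MFAP2 values lay below both controls for 11 of the 22 and for 4 of the 8, which is the same share. Of all genes tested, 31.4% did so. A match of letters is a description of the sequence and not of binding.

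**Figure D2:**
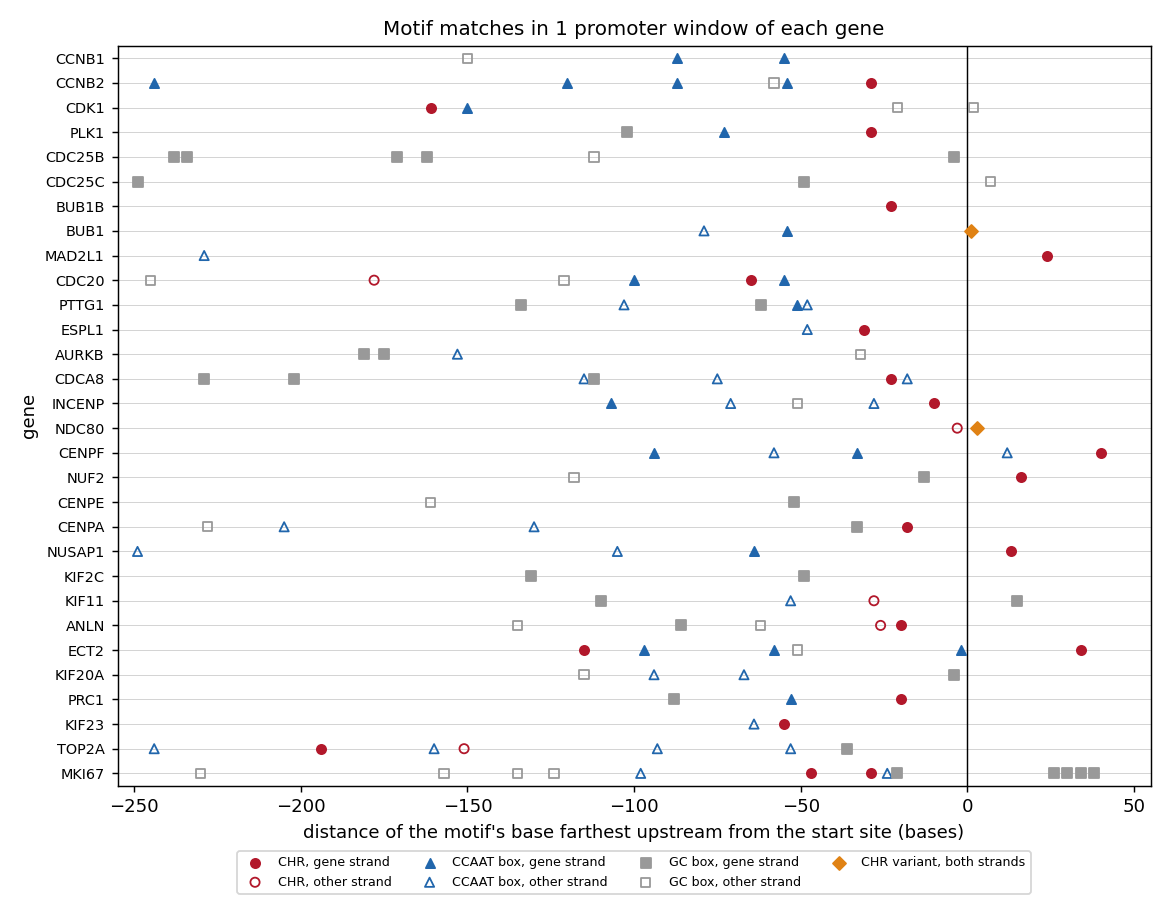
Distance of each motif match from the start site (bases; negative is upstream) in the first listed promoter window of the 30 matched genes. Filled marks are on the strand of the gene and open marks on the other strand, and many CHR matches (red circles) lie in the last 60 bases before the start, with CCAAT boxes (blue triangles) upstream.

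The mitotic kinases, cyclins and phosphatases were nearly level between the groups, with a median log2 fold change of -0.06 over 7 genes. CCNB1 (chromosome 5, 69167010 to 69178245), which encodes cyclin B1 and had the highest level of all 35, was at 138 and 142 FPKM in sh-MFAP2 cells and at 146 and 139 FPKM in controls. The groups overlapped, and the log2 fold change was -0.02 (SE 0.106). Its partner CDK1, the kinase that drives entry into mitosis, was at 36.0 and 48.4 FPKM in sh-MFAP2 cells and at 43.5 and 43.4 FPKM in controls, with the sh-MFAP2 libraries on either side of the controls. CCNB2, cyclin B2, was at 44.4 and 55.3 FPKM in sh-MFAP2 cells and at 57.1 and 57.6 FPKM in controls. It was the only gene of this role whose groups did not overlap (log2 fold change -0.21, adjusted p = 0.585 from limma).

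CDC25B (chromosome 20, 3786772 to 3806121), a phosphatase that removes the inhibitory phosphates from CDK1, had the highest log2 fold change of the 35, 0.23 (SE 0.257, adjusted p = 0.708 from limma). It was at 30.1 and 31.2 FPKM in sh-MFAP2 cells and at 20.6 and 32.8 FPKM in controls. The value rests on control replicate 1, without which the log2 fold change was -0.10. The other phosphatase, CDC25C, was low, from 8.16 to 9.54 FPKM over the 4 libraries, and overlaps FAM53C on the opposite strand. PLK1, the polo-like kinase of centrosomes and kinetochores, ran from 27.1 to 36.3 FPKM and AURKA, the kinase of the spindle poles, from 68.0 to 75.1 FPKM, both with overlapping groups.

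All 5 spindle checkpoint genes had log2 fold changes below 0, with a median of -0.14. BUB3, at -0.04, was above 0 with median-of-ratios scaling, sums of transcripts, or without sh-MFAP2 replicate 1 or control replicate 1. For 3 of the 5, both sh-MFAP2 values lay below both controls, where 31.4% of all genes tested did so. BUB1B (chromosome 15, 40161023 to 40221136), which encodes BubR1, a part of the complex that holds CDC20 in check, was at 28.2 and 27.6 FPKM in sh-MFAP2 cells and at 30.2 and 30.9 FPKM in controls. BUB1, the kinetochore kinase that recruits other checkpoint proteins, was at 24.04 and 27.4 FPKM against 32.2 and 33.1 FPKM (log2 fold change -0.34, adjusted p = 0.407 from limma). TTK, the MPS1 kinase that starts checkpoint signalling, was at 16.8 and 19.6 FPKM against 21.9 and 21.6 FPKM. In MAD2L1 and BUB3, the remaining components, the groups overlapped, with ranges of 20.6 to 25.8 and 25.7 to 29.3 FPKM.

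Of the genes of anaphase onset, CDC20 was the lowest relative to control and had the highest mean gene value. By summed transcripts PTTG1 (125 and 142 FPKM) was above CDC20 (114 and 138 FPKM) in sh-MFAP2 cells. In controls PTTG1 (134 and 132 FPKM) was below CDC20 (144 and 156 FPKM). CDC20 (chromosome 1, 43358955 to 43363203), the activator of the anaphase-promoting complex, was at 93.5 and 114 FPKM in sh-MFAP2 cells and at 118 and 129 FPKM in controls. The groups did not overlap, and the log2 fold change was -0.26 (SE 0.152, adjusted p = 0.526 from limma). PTTG1, the securin that holds separase inactive, ran from 50.8 to 58.7 FPKM and ESPL1, separase itself, from 6.53 to 7.71 FPKM. Both had overlapping groups, and ESPL1 had the lowest level of the 35.

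The 4 genes of the chromosomal passenger complex lay on both sides of control. This complex corrects faulty attachments at the centromere and later works at the central spindle: AURKB is its kinase, INCENP its scaffold, and BIRC5 (survivin) and CDCA8 (borealin) bring it to the centromere. BIRC5 (chromosome 17, 78214186 to 78225636), with the highest mean gene value of them, was at 32.5 and 44.1 FPKM in sh-MFAP2 cells and at 39.6 and 43.6 FPKM in controls. By summed transcripts AURKB was above BIRC5 in every library. The sums were 68.9, 87.8, 70.5 and 73.6 FPKM for AURKB and 47.4, 64.4, 57.9 and 63.7 FPKM for BIRC5. AURKB (chromosome 17, 8204733 to 8210600) was at 35.3 and 43.9 FPKM in sh-MFAP2 cells and at 35.7 and 36.5 FPKM in controls, with a log2 fold change of 0.12. In both genes the sh-MFAP2 libraries lay on either side of the controls.

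CDCA8 (chromosome 1, 37692418 to 37709719) had the lowest log2 fold change of the 35, and a single library set it. CDCA8 was at 14.0 FPKM in sh-MFAP2 replicate 1, and at 31.1 FPKM in sh-MFAP2 replicate 2, 30.03 FPKM in control replicate 1 and 32.0 FPKM in control replicate 2. Only the first of these stands apart, and the groups overlap. The log2 fold change was -0.55 (SE 0.414, adjusted p = 0.596 from limma), and it was 0.01 without sh-MFAP2 replicate 1. INCENP was at 14.8 and 18.01 FPKM in sh-MFAP2 cells and at 18.1 and 21.2 FPKM in controls, without overlap but with sh-MFAP2 replicate 2 and control replicate 1 nearly level.

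Genes of the centromere and kinetochore had a median log2 fold change of -0.34 over 5 genes. Besides CENPF, CENPE, the kinesin that carries chromosomes to the metaphase plate, did not overlap between groups, with 10.7 and 14.9 FPKM in sh-MFAP2 cells and 17.0 and 16.1 FPKM in controls. CENPA, the histone variant that marks centromeres, was at 8.08 and 13.2 FPKM in sh-MFAP2 cells and at 12.0 and 16.2 FPKM in controls. These groups overlap, and CENPA also overlaps SLC35F6 on the same strand. NDC80 and NUF2 encode partners in the complex that grips microtubules. NDC80 (chromosome 18, 2571511 to 2616635) was at 30.2 and 31.5 FPKM in sh-MFAP2 cells and at 29.9 and 26.9 FPKM in controls, the only gene of the 35 whose sh-MFAP2 values both lay above both controls (log2 fold change 0.12, adjusted p = 0.671 from limma). NUF2 ran from 21.0 to 26.6 FPKM with overlapping groups.

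All 4 spindle motors and microtubule proteins had log2 fold changes below 0, with a median of -0.29 (NUSAP1 was at 0.05 without sh-MFAP2 replicate 1). TPX2 (chromosome 20, 31739271 to 31801805), the activator of AURKA on spindle microtubules, was at 65.2 and 110.1 FPKM in sh-MFAP2 cells and at 96.1 and 130.3 FPKM in controls. The groups overlap, because the higher sh-MFAP2 value exceeds the lower control. Its log2 fold change was -0.40 (SE 0.330, adjusted p = 0.620 from limma), and it was -0.02 without sh-MFAP2 replicate 1. NUSAP1, which bundles microtubules near chromatin, was at 37.9 and 67.6 FPKM in sh-MFAP2 cells and at 59.7 and 70.8 FPKM in controls. KIF11, the motor that pushes the spindle poles apart, and KIF2C, which takes microtubules apart at the centromere, did not overlap between groups. KIF11 was at 31.1 and 36.4 FPKM in sh-MFAP2 cells and at 38.9 and 38.2 FPKM in controls, and KIF2C at 38.3 and 34.98 FPKM and at 41.7 and 44.2 FPKM.

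For 4 of the 5 genes of the central spindle and cytokinesis, both sh-MFAP2 values lay below both controls, where 31.4% of all genes tested did so. The median log2 fold change of the 5 was -0.19. ANLN (chromosome 7, 36389806 to 36453791), the anillin that ties the contractile ring to the membrane, had closely matched replicates, at 50.95 and 50.8 FPKM in sh-MFAP2 cells and 61.6 and 62.6 FPKM in controls. Its log2 fold change was -0.28 (SE 0.1003, adjusted p = 0.407 from limma). KIF23, the motor of centralspindlin, was at 22.7 and 23.8 FPKM in sh-MFAP2 cells and at 25.96 and 26.2 FPKM in controls. KIF20A, which carries the passenger complex to the midzone, was at 28.6 and 27.9 FPKM against 32.4 and 32.5 FPKM, and its locus overlaps BRD8 and CDC23 on the opposite strand.

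PRC1 (chromosome 15, 90966038 to 90995629), the protein that bundles antiparallel microtubules at the midzone, was on the other side. PRC1 was at 32.1 and 24.5 FPKM in sh-MFAP2 cells and at 25.1 and 26.1 FPKM in controls. The sh-MFAP2 libraries lay on either side of the controls, the log2 fold change was 0.13 (SE 0.171), and it was -0.06 without sh-MFAP2 replicate 1. MKI67, the Ki-67 protein that coats mitotic chromosomes and marks dividing cells, was at 32.6 and 26.6 FPKM in sh-MFAP2 cells and at 33.0 and 35.8 FPKM in controls. These groups do not overlap, by a margin of less than 1 FPKM, and the log2 fold change was -0.21 (SE 0.149, adjusted p = 0.571 from limma).

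**Figure D3:**
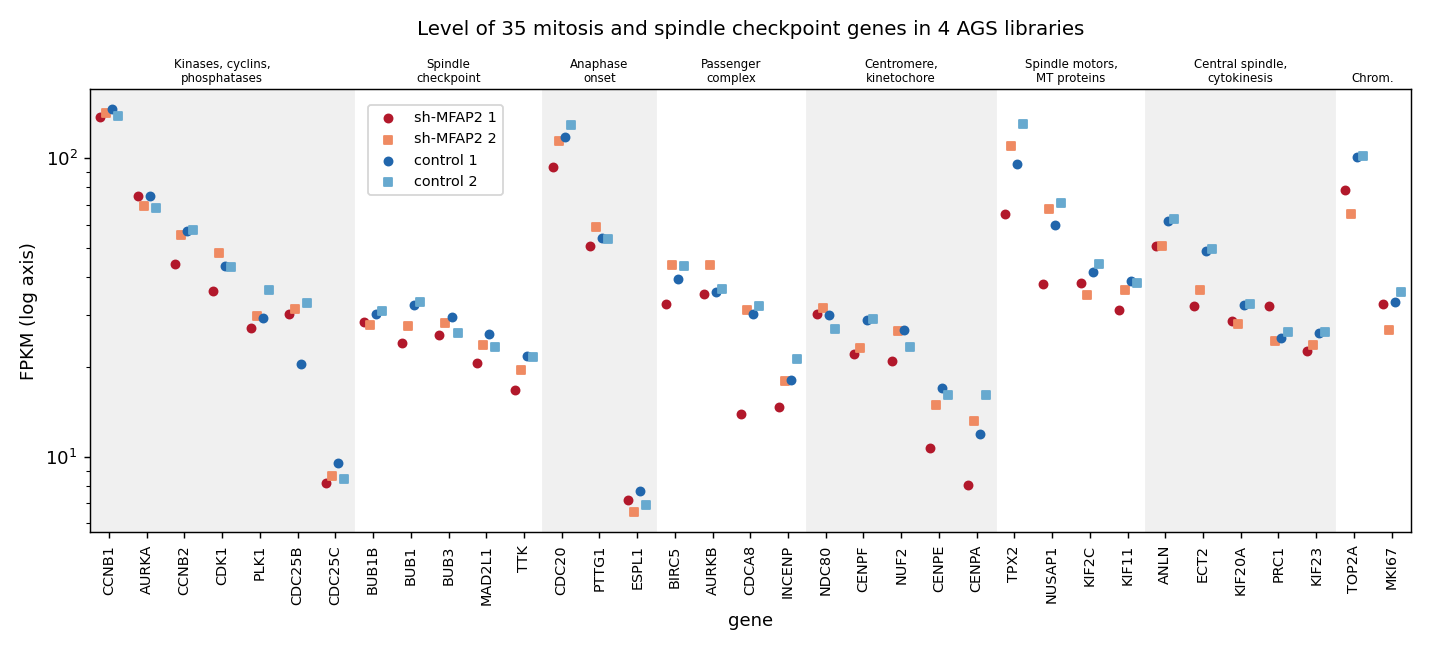
FPKM (log axis) of the 35 mitosis genes in each of the 4 libraries, ordered by role and within a role by mean level ("Chrom." holds TOP2A and MKI67). Levels run from ESPL1 and CDC25C at under 10 FPKM to CCNB1 near 140 FPKM, and for most genes the 4 points lie close together, with sh-MFAP2 replicate 1 (dark red) often the lowest.

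All 35 genes lay above the median level of the genes tested, 6.43 FPKM. Their means over 4 libraries ran from 7.08 to 141 FPKM with a median of 30.4 FPKM, so the whole programme was well measured in these cells. By gene value CCNB1, CDC20 and TPX2 led, followed by TOP2A and AURKA, and ESPL1, CDC25C and CENPA were at the bottom of the order. This order depends on the 1 length used for each gene. By summed transcripts PTTG1, at 125, 142, 134 and 132 FPKM, was above TOP2A and AURKA in every library. By gene value, neighbours in the middle of the order do not differ beyond their spread. BUB1B, BUB1 and NDC80, for example, had means of 29.2, 29.2 and 29.6 FPKM, while BUB1 alone ran from 24.04 to 33.1 FPKM. Their summed transcripts were less alike, from 34.8 to 39.4 FPKM for BUB1B, 41.9 to 58.6 FPKM for BUB1 and 46.0 to 53.6 FPKM for NDC80.

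The lower values of the mitosis genes came mainly from sh-MFAP2 replicate 1. That library held the lowest of the 4 values for 24 of the 35 genes (68.6%), where it did so for 37.8% of all genes tested, and sh-MFAP2 replicate 2 held the lowest for 8. Replicate 1 was below replicate 2 of the same group for 26 genes (74.3%) against 56% of all genes. The median deviation of the 35 from each gene's mean over 4 libraries, in log2, was -0.16 in sh-MFAP2 replicate 1, 0.01 in sh-MFAP2 replicate 2, 0.07 in control replicate 1 and 0.11 in control replicate 2. Measured this way, sh-MFAP2 replicate 2 lay between its own replicate and the controls, nearer to the controls.

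The genes differed widely in how much of this they carried. In 4 of them, CDCA8, NUSAP1, TPX2 and CENPA, sh-MFAP2 replicate 1 was more than 0.5 log2 below replicate 2, by 1.102, 0.82, 0.75 and 0.65. The only other gap of that size between replicates was in CDC25B, between the controls. In CDCA8, NUSAP1, TPX2 and CENPA, control replicate 1 was also below control replicate 2. The log2 differences, replicate 1 minus 2, were -0.09, -0.24, -0.44 and -0.40. TOP2A, MKI67 and PRC1 had the opposite order, with sh-MFAP2 replicate 1 above replicate 2 by 0.27, 0.28 and 0.38 log2. Over the 35 genes the median absolute difference between replicates was 0.204 log2 in sh-MFAP2 cells and 0.0826 log2 in controls, and 26 genes had the larger spread in sh-MFAP2 cells. Over all genes tested these medians were 0.204 and 0.113 log2.

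Leaving out libraries showed the same dependence. Without sh-MFAP2 replicate 1 the median log2 fold change of the 35 was -0.07, 25 genes were below 0 and 18 did not overlap on the lower side, where 45% of all genes tested did so. Without sh-MFAP2 replicate 2 the median was -0.25, 31 genes were below 0 and 30 did not overlap on the lower side, beside 49.5% of all genes. The medians of all genes tested were -0.03 without sh-MFAP2 replicate 1 and -0.07 without sh-MFAP2 replicate 2. In each case a lone sh-MFAP2 library was assumed to vary like the others.

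**Figure D4:**
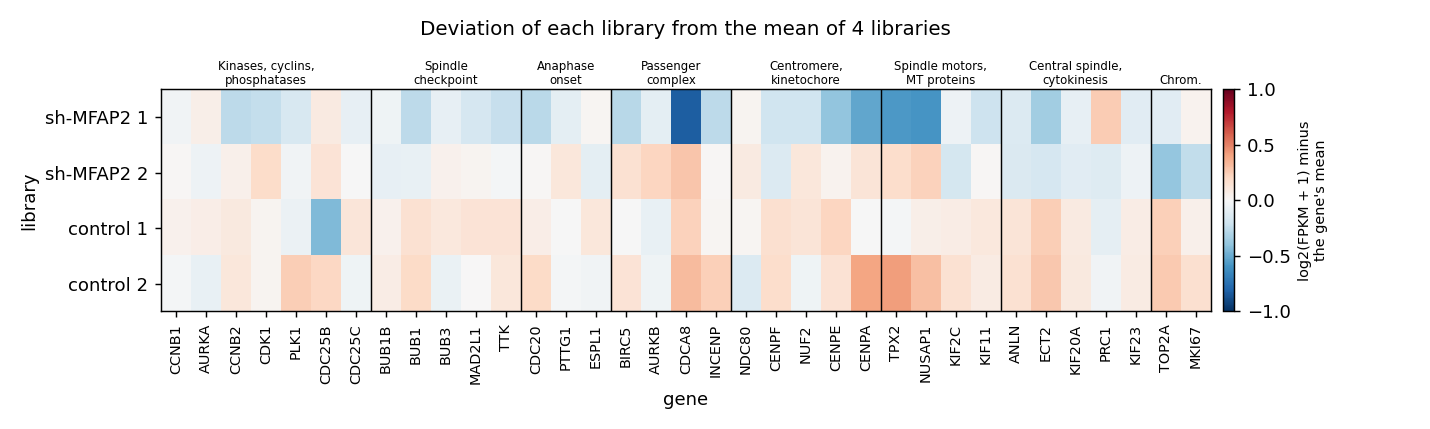
Deviation of each library from the gene's mean over the 4 libraries, in log2(FPKM + 1), for the 35 mitosis genes by role; blue is below the mean and red above. The row of sh-MFAP2 replicate 1 is blue for most genes, darkest at CDCA8 (1.102 log2 below replicate 2), while TOP2A and MKI67 are lowest in sh-MFAP2 replicate 2.

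The share of genes below control also moved with gene length across the whole table. Of all genes tested, both sh-MFAP2 values lay below both controls for 12.5% of those under 2000 bases, 21.8% of those from 2000 to 4000 bases and 39.4% of those over 4000 bases, with median log2 fold changes of 0.12, 0.01 and -0.11. Of the mitosis genes over 4000 bases, 12 of 18 were lower without overlap (median -0.20). From 2000 to 4000 bases, 4 of 16 were (median -0.11), and the 1 shorter gene, CENPA, was not. The 16 genes that lay lower without overlap were thus mostly long ones, ECT2, TOP2A and CENPF among them. The part of length in the difference was not tested.

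Transcript values were given for 275 transcripts of the 35 genes, of which 121 had a mean of at least 1 FPKM. None of the 121 was called by limma, nor was any of the 22312 transcripts tested (0%), and the smallest adjusted p was 0.427. At an unadjusted p under 0.05 there were 7, where 7.64% of all transcripts tested passed. Both sh-MFAP2 values lay below both controls for 30 of the 121, against 24.9% of all transcripts tested, and above both for 14, against 17.8%. The long transcript of TOP2A (5758 bases), at 98.9% to 99.5% of the gene's summed transcripts, had 87.6 and 72.5 FPKM in sh-MFAP2 cells and 113 and 114 FPKM in controls. That of CENPF (10307 bases) had 25.1 and 26.1 FPKM against 32.4 and 32.9 FPKM, so in both genes the gene value was that of 1 form.

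In ECT2 no form led throughout. The leading transcript by mean (4158 bases) made up 31.7% to 41.0% of the sum, and 3 different transcripts led in the 4 libraries, while the gene value was close between replicates. NUSAP1 also had 3 different leading transcripts. Its 1629-base form made up 30.4%, 26.9% and 33.1% of the sum in both sh-MFAP2 libraries and control replicate 1 but 8.1% in control replicate 2. In PRC1 the 3034-base form held 59.2% and 58.4% in sh-MFAP2 replicate 1 and control replicate 2, and 23.7% and 26.1% in the other libraries. In CDC25B the 3597-base form held 24.4% in sh-MFAP2 replicate 1 and 69.8% to 75.7% in the others. In each of these genes the library or pair of libraries that stood apart did not make up a group.

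Of the 121 transcripts tested, 30 lay lower and 14 higher without overlap, beside 24.9% and 17.8% of all transcripts tested. A form of BUB1B was among the 30. Its 3628-base transcript was at 2.69 and 0.01 FPKM in sh-MFAP2 cells and at 7.87 and 9.78 FPKM in controls, while the main 3725-base transcript was at 29.9 and 31.8 FPKM against 27.1 and 26.03 FPKM. The log2 fold change of the minor form was -2.34 (SE 0.714, adjusted p = 0.618 from limma). Its p was not the smallest. A 908-base form of KIF2C, with an adjusted p of 0.427 from limma, was at 0.45 and 0.45 FPKM against 2.02 and 2.95 FPKM. Forms that share most of their exons are separated by few reads, so their shares are uncertain. Over the 35 genes, 27 had the same leading transcript in all 4 libraries, and in 7 a single transcript held more than 90% in each.

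**Figure D5:**
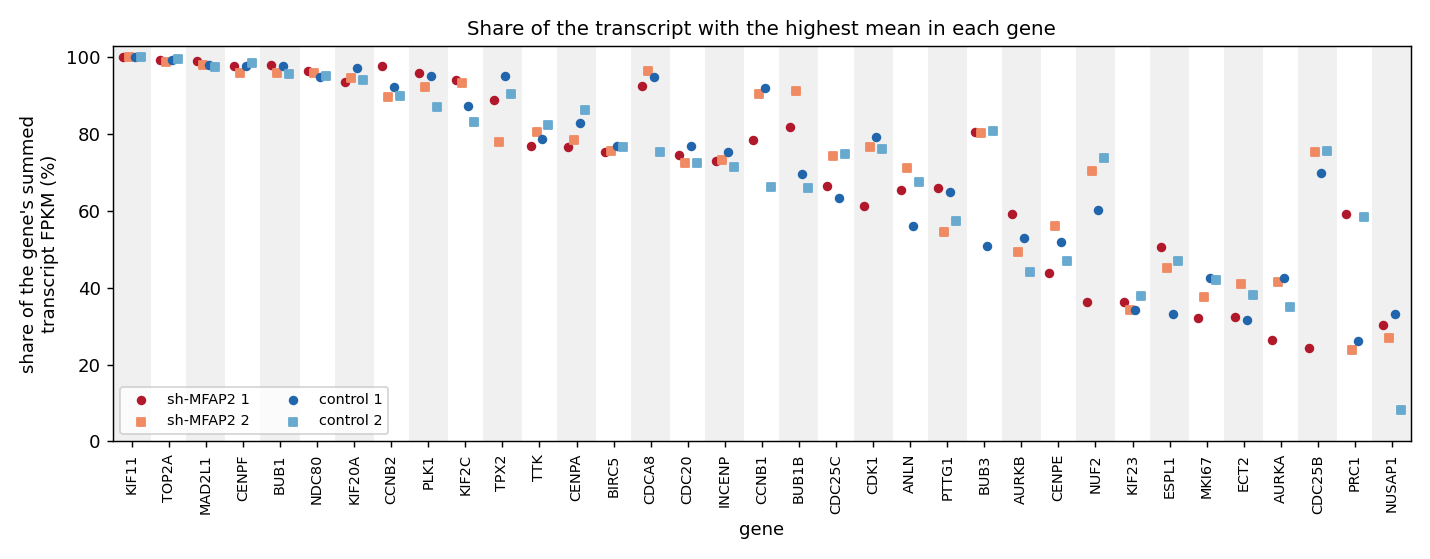
Share (%) of each gene's summed transcript FPKM taken by the transcript with the highest mean, in each of the 4 libraries, with genes ordered by their lowest share. KIF11, TOP2A, MAD2L1 and CENPF rest on 1 form in every library, while NUSAP1, PRC1 and CDC25B differ between libraries of the same group.

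Other genes of the mitotic machinery also lay mostly below control, with no call. Of 136 such genes, written as lists by function, 134 were tested and 0 called by limma, with a smallest adjusted p of 0.154. At an unadjusted p under 0.05, 21 were lower and 2 higher. The log2 fold change was below 0 for 92, the median was -0.16, and both sh-MFAP2 values lay below both controls for 63 (47.0%) and above both for 15. Over all genes tested, 8.41% were lower and 3.89% higher at that p, and 31.4% were lower and 17.5% higher without overlap. By function, the median was -0.35 over 18 genes of cohesin and condensin (11 lower without overlap), -0.29 over 37 further kinetochore and checkpoint genes (23 lower) and -0.19 over 27 further spindle and cytokinesis genes (14 lower). It was 0.03 over 18 genes of the anaphase-promoting complex and its E2 enzymes (5 lower, 27.8% and so under the share of all genes, and 4 higher) and -0.05 over 18 further mitotic kinases and regulators (5 lower, 3 higher).

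PDS5A, which regulates the loading and release of cohesin, had the smallest p of these genes. PDS5A was at 8.10 and 9.57 FPKM in sh-MFAP2 cells and at 19.7 and 19.9 FPKM in controls, a log2 fold change of -1.08 (SE 0.125, adjusted p = 0.154 from limma), larger than that of any of the 35. MIS18A, which helps to load CENPA at centromeres, and MIS12, a kinetochore subunit, were lower still on average but with replicates apart. MIS18A was at 11.1 and 2.83 FPKM against 14.4 and 18.8 FPKM, and MIS12 at 7.80 and 2.03 FPKM against 12.4 and 11.5 FPKM. On the higher side ANAPC13, a small subunit of the anaphase-promoting complex, was at 24.7 and 28.0 FPKM against 16.7 and 7.54 FPKM. PKMYT1, the kinase that holds CDK1 inactive, was at 10.6 and 9.53 FPKM against 8.04 and 6.43 FPKM, and ANAPC11, the RING subunit of the same complex, at 6.49 and 7.97 FPKM against 5.63 and 5.34 FPKM.

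Known regulators of the mitosis genes were mixed. FOXM1, a transcription factor that activates G2 and M genes, was at 17.9 and 16.1 FPKM in sh-MFAP2 cells and at 22.0 and 33.0 FPKM in controls, without overlap (log2 fold change -0.64, SE 0.235, adjusted p = 0.412 from limma). MYBL2, which encodes B-MYB, was at 147 and 146 FPKM against 147 and 135 FPKM (log2 fold change 0.06). CCNA2, the cyclin A of S and G2 phase, was at 35.5 and 38.5 FPKM against 45.9 and 46.6 FPKM, a log2 fold change of -0.31 (adjusted p = 0.401 from limma). CDKN1A, which encodes the CDK inhibitor p21, was at 25.2 FPKM in sh-MFAP2 replicate 1 and 77.0 FPKM in sh-MFAP2 replicate 2, and at 23.8 and 70.7 FPKM in control replicates 1 and 2, so that the values went with the replicate number (log2 fold change 0.10, SE 0.806). Over 16 transcriptional regulators of the late cell cycle the median was -0.12, with 5 lower (31.2%, where 31.4% of all genes were) and 0 higher without overlap.

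Genes of DNA replication, which act in S phase, were on neither side. The median log2 fold change of 42 such genes was 0.04, 0 were called by limma (4 lower and 1 higher at an unadjusted p under 0.05), and 14 (33.3%) were lower and 9 higher without overlap. The shares of all genes tested were 8.41% and 3.89% at that p and 31.4% and 17.5% without overlap, close to these. POLD3, a polymerase delta subunit, was at 3.61 and 3.97 FPKM against 10.2 and 5.29 FPKM, RFC1, which loads the sliding clamp, at 11.5 and 10.5 FPKM against 17.2 and 18.7 FPKM, and CLSPN, the checkpoint adaptor claspin, at 6.05 and 6.52 FPKM against 8.95 and 9.63 FPKM. LIG1, the DNA ligase of the lagging strand, was at 21.3 and 16.5 FPKM against 11.4 and 10.7 FPKM, MCM3, a helicase subunit, at 65.7 and 53.3 FPKM against 38.1 and 48.9 FPKM, and FEN1, the flap nuclease, at 66.4 and 48.6 FPKM against 45.2 and 45.7 FPKM. The difference between the replication and the mitosis genes was not tested.

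The cells carried the markers of an epithelial line. KRT8 was at 689.6 to 803 FPKM and EPCAM at 193 to 210.4 FPKM over the 4 libraries, and 8 of 11 epithelial markers passed the filter, while CDH1, KRT7 and KRT20 did not. Of 8 fibroblast markers 7 were under 0.1 FPKM in every library, and all 5 endothelial markers were. The summed level of the fibroblast list was 2.16 to 2.36 FPKM in sh-MFAP2 cells and 4.40 to 4.98 FPKM in controls, nearly all of it COL1A1, and none of its other members was above 0.1 FPKM. Of 8 leukocyte markers 2 passed the filter, LYZ and CD68, PTPRC was at most 0.02 FPKM and CD3D and FCGR3A were at 0 throughout. Their sum was 89.2 and 583 FPKM in sh-MFAP2 cells and 97.3 and 376 FPKM in controls, most of it LYZ. CD68 was at 3.13 and 3.12 FPKM in sh-MFAP2 cells and at 7.85 and 7.20 FPKM in controls. The part of these markers in the values of the mitosis genes was not tested.

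Reads of some of the 35 genes may be shared with other loci. Processed pseudogenes of AURKA, BUB1, BUB3, CCNB2, CDC20, MKI67 and PTTG1 are annotated in GENCODE 29 and were not analysed here, and PTTG2, a close copy of PTTG1, was at no more than 0.0529 FPKM. Whether counting used the strand of the reads is not given in the sources used here, so values of genes that overlap another on the opposite strand, as KIF20A, CDC25C and ANLN do, may include reads of the partner.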

How the data were processed

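Values per gene and per transcript for the 4 libraries, as deposited, were read as FPKM because of their range and steps. The program, its version and the annotation are not given in the sources used here, and the submitters' processing notes name build hg38. Gene values matched their transcripts weighted by length and divided by 1 gene length (within 1% for 8962 of 8962 genes checked), so they follow reads rather than molecules. On low values, 60.7% to 62.2% lay on whole steps of 1 read (10% by chance), so depth was inferred but reads were not recovered and no count test was used. Precision is limited by 2 libraries a group, for which permuting the labels of 1 gene exactly gives p = 0.333 at the least.

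Genes averaging 1 FPKM or more were fitted on log2(FPKM + 1) in limma 3.58.1 (lmFit, eBayes with trend) under R 4.3.3, with Benjamini-Hochberg adjustment over all 9873 genes, and transcripts likewise. Fold changes on this scale understate those of low genes. Tables and figures used matplotlib 3.10.9, numpy 2.4.6 and pandas 2.3.3 under Python 3.11.15. Coordinates are from GENCODE 29 on GRCh38, which held 43715 of the 47251 gene identifiers (92.5%). Promoter windows and their sequences are from RefSeq on GRCh38.p14. Same-numbered libraries did not deviate together (correlation -0.0572 over genes), so numbers were not taken as pairs.

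The 35 genes, the other lists and the motifs were chosen with earlier results of these data known. Values per library are given for genes called, with unadjusted p under 0.05, with the 4 lowest or 4 highest log2 fold changes or with the highest level of a role, and for other members where a role is described. Of the other mitotic and the replication genes, the 3 lowest and 3 highest without overlap are named, with PDS5A the smallest p among them. CCNA2, FOXM1, MYBL2 and CDKN1A are named as known regulators. Transcripts and markers singled out were chosen after their values were seen.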

Additional observations from a re-analysis of the deposited data

How the results depend on the processing

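No mitosis gene, other mitotic gene or transcript was called under any alternative run: no filter or one at 5 FPKM, a pseudocount of 0.1, quantile or median-of-ratios scaling, eBayes without trend, a replicate block, sums of transcripts (genes only), adjusted p under 0.05 or 0.1 alone, and leaving out each library, where a lone library was assumed to vary like the others. The smallest adjusted p of a mitosis gene over these was 0.1595 (CDCA8 without sh-MFAP2 replicate 2). The replicate block left the median of the 35 at -0.192 with 16 genes lower without overlap, which it cannot change in this balanced design. With the block, 1 of the 35 had an unadjusted p under 0.05 (3 without it), where 722 of all 9873 genes tested did (1214 without it). It took all DEGs from 27 to 0. All DEGs were 6 without a filter, 9 at 5 FPKM, 22 to 28 under the other pseudocount, scalings, variance model and sums, and 0 with any library left out. Leaving out libraries gave 18 to 30 genes lower without overlap (30 without sh-MFAP2 replicate 2), beside 42.2% to 49.5% of all genes tested. It gave 2 to 5 genes higher, beside 26.2% to 33.6% of all genes tested. The median of the 35 was then -0.255 to -0.0709, beside -0.0690 to -0.0335 for all genes tested. Median-of-ratios scaling gave 4 genes higher, beside 24.1% of all genes tested, and a median of -0.123. Sums of transcripts gave 0 higher, beside 17.4%.

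Of 612 single-gene values for 51 genes, 23 in 14 genes changed sign, none of them called. With median-of-ratios scaling the log2 fold change was 0.0153 for CDK1, 0.0472 for CCNB1 and 0.0318 for BUB3, and with sums of transcripts -0.0339 for AURKA and 0.163 for BUB3. Over the libraries left out, it ran from -0.263 to 0.153 for CDK1, -0.0589 to 0.0101 for CCNB1, -0.0957 to 0.554 for CDC25B, -0.0624 to 0.0792 for AURKA, -0.121 to 0.0457 for BUB3, -0.0856 to 0.119 for PTTG1 and -0.0330 to 0.277 for AURKB. It ran from -0.346 to 0.0831 for BIRC5, -1.10 to 0.00552 for CDCA8, -0.236 to 0.0765 for NUF2, -0.763 to 0.0549 for NUSAP1, -0.0631 to 0.316 for PRC1, -0.00174 to 0.117 for MYBL2 and -0.685 to 0.889 for CDKN1A. The cause was not tested. The 95% intervals of the 35 genes reached 0.284 to 1.18 log2 on either side, which limits what 2 libraries a group can show of differences of this size.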

Other observations

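Of the 9873 genes tested, 2072 (21%) had both replicate 1 values on 1 side of both replicate 2 values. The split by group was more common, with 31.4% lower and 17.5% higher in sh-MFAP2 cells without overlap. Some of the genes named here were split by replicate number. Besides CDKN1A, CDKN1B (the CDK inhibitor p27) was at 17.1 and 23.3 FPKM in replicate 1 of sh-MFAP2 and control and at 3.23 and 3.58 FPKM in replicate 2. CDKN2D (p19) was at 0.763 and 0.729 FPKM in replicate 1 and at 1.99 and 1.63 FPKM in replicate 2, and CDKN2C (p18) at 0.479 and 0.459 FPKM and at 2.80 and 0.905 FPKM. LYZ, lysozyme, was at 85.5 and 89.3 FPKM in replicate 1 and at 579 and 369 FPKM in replicate 2. These 5 genes were chosen after their values were seen. CDKN1C, CDKN2A and CDKN2B did not pass the filter, with at most 1.07 FPKM.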
